A study of Mus musculus with 6 samples.

Results

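Skin taken from the abdomen, far from an implanted pump, was compared with skin from the pump outlet under every agent that was released. The comparison sets 1 distal array against 5 outlet arrays and uses all 6 arrays of the series. All animals were C57BL/6 mice with a subcutaneous pump in place for 7 days. The distal skin (PBS distal) belongs to the PBS treatment. The outlet skin was exposed to PBS (PBS local, 1 array), IL-13 (IL-13 local, 1 array), TSLP (TSLP local, 1 array) and TGF-beta (TGF-beta local, mouse 1 and mouse 2). The labels give neither sex nor age, and do not say whether PBS distal and PBS local share an animal. Apart from the TGF-beta mice they do not say how many animals an array stands for, so an array could hold a pool. The distal array differs from every outlet array in body site and in distance from the pump at once, so the effects of body site, of the pump and of this 1 sample cannot be told apart. A probe set was chosen when its distal value lay below or above all 5 outlet values, and chosen probe sets were ranked by the smallest of their 5 differences.

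Subcutaneous implants set off a foreign body response, in which acute phase proteins and neutrophil chemokines come first, macrophages follow, and fibroblasts then lay down a matrix rich in tenascins, thrombospondins and collagens. Mouse skin also carries a thin sheet of skeletal muscle, the panniculus carnosus, under the dermis. Adult muscle that is injured or loses its nerve supply turns embryonic and perinatal myosins back on. Skin cells keep a record of their place in the body through transcription factors such as the Hox genes, which are switched on in ordered domains along the body axis in the embryo.

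The arrays had medians between 160.2 and 171.4 signal units, with PBS distal at 161.1. The ratio of 3' to 5' signal of the Actb control was 1.25 in PBS distal and 1.13 to 1.25 at the outlets, and that of Gapdh was 0.804 against 0.748 to 0.84. Xist, which is transcribed from the inactive X chromosome, lay between 7428 and 10027 in all 6 arrays, and the 3 Y-linked genes measured stayed at or below 22.8. The summed signal of 12 basal keratinocyte genes, which define skin, was 64902 in distal skin and 42449 to 49223 at the outlets. Fast muscle fibre genes were also bright in every array. In skin samples of this kind, fewer cells of a type and less RNA per cell cannot be told apart.

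Large differences between distal skin and the outlets were mostly of genes low in distal skin. Among 7945 genes, each read by its probe set with the highest mean, 1979 (24.9%) lay below all 5 outlet arrays and 2131 (26.8%) above all 5, so lying outside the outlets was common in both directions. A difference of at least 2-fold from each of the 5 was rare and lopsided, with 135 genes (1.7%) below and 25 (0.315%) above. In limma, which took its spread from the 5 outlet arrays, 194 genes (2.44%) were lower and 83 (1.04%) higher in distal skin at a Benjamini-Hochberg adjusted p under 0.05. Over the 12430 probe sets tested, 2946 (23.7%) lay below and 3300 (26.5%) above all 5, 187 (1.5%) and 34 (0.274%) did so by 2-fold, and limma called 265 (2.13%) lower and 116 (0.933%) higher. All called probe sets lay outside all 5 outlet arrays. Of the called probe sets 69.6% were lower, but only 33.7% (98 lower and 193 higher) when signals were floored at the median of the arrays in place of the offset. The median difference over all genes was 0.02 on the log2 scale, which the common scaling of the arrays largely sets. Gene lists below are described by their members that reached 165.1 signal units in at least 1 array. Their counts are to be read beside the shares of all genes, 24.9% below and 26.8% above all 5, and 2.44% called lower and 1.04% higher. A gene dim in distal skin passed that filter only where an outlet was high, so the filter itself favours low distal values, and the number of such genes is given for the lists with many of them.

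The limma counts moved with the outlet arrays that entered. They fell from 265 lower and 116 higher to 54 and 9 without IL-13 local and to 80 and 14 without TGF-beta local mouse 1. They were 199 and 78 without TSLP local, 259 and 122 without PBS local, and 393 and 226 without TGF-beta local mouse 2. With PBS local as the only outlet array compared, the spread came from the TGF-beta pair alone, and limma then called 1 probe set lower, that of Saa3, and 0 higher, with 1214 at an unadjusted p under 0.05. Of the 54 called genes named in the text, 23 were called whichever outlet array was left out, while 27 lost the call without IL-13 local and 21 without TGF-beta local mouse 1. Of the 47 called genes that the naming rule gave and that are also named in the text, 24 lost the call with signals floored at the median. Of the same 47, 26 lost it with the spread of the TGF-beta pair and 15 without the filter on dim probe sets. At the edge of the rule, the distal value of Tmem47 differed from the lowest outlet value by -9.4e-05 and was counted, and that of Psma7 lay above it by 1.1e-04 on the log2 scale and was not. At the 2-fold mark, Ppic had a smallest difference of -1.002 and was counted, and Rasa4, with -0.992, was not.

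**Figure D1:**
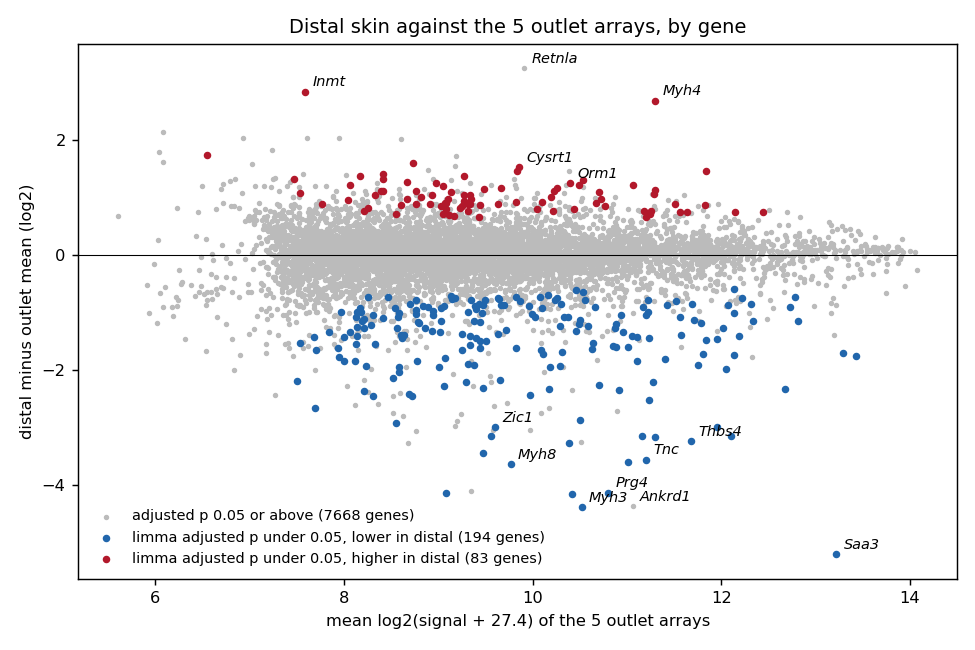
Each point is 1 of 7945 genes, placed by its mean log2(signal + 27.4) over the 5 outlet arrays (x axis) and by PBS distal minus that mean in log2 units (y axis), with genes called by limma in blue (194 lower) or red (83 higher). The blue points reach much further from 0 than the red ones, with Saa3 lowest at -5.21.

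Of the 135 genes at least 2-fold below all 5 outlets, 96 were called by limma, and in 109 the step from distal skin to the nearest outlet was larger than the whole range of the outlets. PBS local was the nearest outlet for 45 of them, TGF-beta local mouse 2 for 37, TSLP local for 25, TGF-beta local mouse 1 for 16 and IL-13 local for 12. Their median difference was -1.66 from PBS local, -2.08 from IL-13 local, -1.86 from TSLP local, and -1.99 and -1.71 from TGF-beta local mouse 1 and mouse 2. In distal skin 73 of the 135 lay under that filter, so their differences understate the change. Of the 25 genes at least 2-fold above all 5, limma called 14, and 9 were under that filter in every outlet array. Genes on both sides were chosen by the same values that gave the limma calls, the steps and the median differences. These figures thus describe the chosen genes and are no independent check of them.

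The acute phase gene Saa3, which encodes a serum amyloid A protein made in inflamed tissue, stood furthest from the outlets. Its signal was 231 in distal skin against 5386, 10749, 9981, 11649 and 11467 in the outlet arrays, here and below in the order PBS, IL-13, TSLP, TGF-beta mouse 1 and TGF-beta mouse 2. The outlets thus held 21.0 times the distal signal or more, with PBS local the lowest of them, and the difference from their mean was -5.21 (SE 0.38, limma adjusted p 0.00258). Saa3 was called in each limma setting that was tried.

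Several genes of the neutrophil list were far lower in distal skin. Of 17 on the array 11 passed the filter, 8 of them only through the outlets, which fixes much of the direction. Of the 11, 10 lay below all 5 outlets, 6 were called lower and 0 higher, and the median difference was -2.44. Clec4d, a C-type lectin of myeloid cells, read 49.4 against 582, 2073, 1789, 1522 and 1314 (difference -4.16, SE 0.55, limma adjusted p 0.0172). S100a9, a subunit of calprotectin, read 143 against 1329, 3269, 2458, 2170 and 1496 (-3.60, SE 0.42, 0.0141). Its partner S100a8 read 474 against 2392, 6777, 2857, 4212 and 4932 (-2.99, SE 0.48, 0.026). PBS local was the lowest outlet for these 3 genes, and still well above distal skin. Il1b, the inflammatory cytokine IL-1 beta, read 57.7 against 588, 1578, 1059, 415 and 483 (-3.15, SE 0.62, 0.043). S100a8 and S100a9 were also on a list of stressed keratinocyte genes, and Il1b on that of acute inflammation. These 3 genes thus do not mark neutrophils alone. Ngp and Camp, also on the neutrophil list, were lower by less and not called (-1.48, SE 0.55, limma adjusted p 0.188, and -0.85, SE 0.37, 0.267). Mmp9, the gelatinase of neutrophil granules, did not follow the group, with 172 in distal skin and 157 to 463 at the outlets. The call of Il1b was lost without PBS local, IL-13 local, TSLP local or TGF-beta local mouse 1 (adjusted p 0.0521 to 0.0601), and that of S100a8 without TGF-beta local mouse 1 (0.0548).

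Chemokines and acute inflammatory mediators were mostly low as well, but their outlet values were scattered. Of 29 on the array 25 passed, 13 of them only through the outlets. Of the 25, 21 lay below all 5 outlets and 2 above, 5 were called lower and 0 higher, and the median was -1.42. Cxcl5, which recruits neutrophils through CXCR2, read 10.6 in distal skin against 67.4, 1883, 1662, 1036 and 334. Cxcl2, with the same receptor, read 15.0 against 102, 1051, 879, 306 and 244. In both genes the cytokine arrays were far above PBS local, which was itself above distal skin, and neither was called (Cxcl5 -4.10, SE 1.42, limma adjusted p 0.16, and Cxcl2 -3.27, SE 1.00, 0.121). Without PBS local, Cxcl5 was called (0.0372). Cxcl13, a B cell attractant, was even across the outlets, with 229 in distal skin against 688, 621, 737, 697 and 766 (-1.50, SE 0.15, 0.00974). Ptx3, a soluble pattern receptor of the pentraxin family, read 171 against 1318, 2512, 1728, 1165 and 878 (-2.87, SE 0.45, 0.0249, and 0.0512 without TGF-beta local mouse 1).

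Macrophage genes differed less. Of 21, 16 lay below all 5 outlets and 1 above, 5 were called lower and 0 higher, and the median was -0.47. Ms4a7, a membrane protein of tissue macrophages, read 590.5 against 1740, 2482, 2181, 2327 and 2266 (-1.84, SE 0.19, limma adjusted p 0.0101). The general macrophage gene Adgre1 was lower by far less, at 852 against 1365 to 1706 (-0.78, SE 0.15, 0.043). Marco, a scavenger receptor, read 5.07 in distal skin against 135, 111, 196, 239 and 250.7 (-2.66, SE 0.41, 0.0242, and 0.0512 without TGF-beta local mouse 1). Lyve1, a hyaluronan receptor of lymphatic vessels and of some resident macrophages, went the other way, with 3624 against 2407, 1287, 1390, 1104 and 806. It lay above all 5 but was not called (1.45, SE 0.45, 0.129, and 0.036 without PBS local). The call of Adgre1 was lost without IL-13 local or TGF-beta local mouse 1 (0.0958 and 0.0804).

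Genes of the giant cells that form around implants did not share a direction. Of 9 such genes, a list that also covers osteoclasts, 3 lay below all 5 outlets and 2 above, near the shares of all genes (24.9% and 26.8%). Of the 9, 2 were called lower, and the median was -0.03. Trem2 was the 1 gene of the 9 that passed the filter only through the outlets. The called genes were Trem2, a lipid receptor of macrophages, at 105 against 339, 674, 478, 629 and 406 (-1.96, SE 0.33, limma adjusted p 0.0289, with 0.0648 and 0.0534 without IL-13 local and TGF-beta local mouse 1), and the protease gene Ctsk, at 1126 against 2624, 3348, 3047, 3234 and 2840 (-1.40, SE 0.16, 0.0136). Lgals3, Fabp5 and Nfatc1 lay within the outlet range.

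Complement, mast cell, erythroid and B cell genes were mostly below the outlets too. Of 11 complement genes, 10 lay below all 5 outlets and 5 were called lower, with a median of -0.74. The alternative pathway gene Cfb read 648 against 1795, 1788, 3120, 2062 and 1671 (-1.61, SE 0.30, limma adjusted p 0.0385). Of 12 mast cell genes 7 passed, 4 of them only through the outlets. These 7 lay below all 5 outlets, and 2 were called, Fcer1a (-1.66, SE 0.25, 0.0242) and the histamine-forming enzyme Hdc (-2.03, SE 0.42, 0.0476). Of 11 erythroid genes 8 passed, 6 of them only through the outlets. These 8 lay below all 5, with a median of -1.80, and 3 were called. Alas2, the first enzyme of haem synthesis in red cell precursors, was -1.84 (SE 0.19, 0.0101). Of 10 B and plasma cell genes 7 passed, 5 of them only through the outlets, and of the 7, 6 lay below all 5 and 0 were called. The calls of Cfb and Fcer1a were lost without IL-13 local (0.0794 and 0.066), that of Cfb also without TGF-beta local mouse 1 (0.0763), and that of Hdc without any single outlet array except TGF-beta local mouse 2 (0.0589 to 0.0672).

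Summed markers of blood and of a tissue foreign to skin were lowest in distal skin. The summed signal of the 8 erythroid genes was 1079 in distal skin and 4857, 3798, 2946, 3068 and 3117 at the outlets. The summed signal of 12 exocrine pancreas enzyme genes, a list drawn up after its values were known, was 1059 in distal skin and 6091, 20920, 17224, 2503 and 14664 at the outlets. The erythroid sum was highest in PBS local and the pancreas sum in IL-13 local, so they did not rank the outlets alike. Of the 12 pancreas genes, 11 passed the filter only through the outlets. The 12 lay below all 5 outlets, with a median of -2.76, and 0 were called. The part of either in the other differences was not tested.

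Type 2 immune genes were split. Retnla, which encodes a resistin-like molecule of alternatively activated macrophages and fat tissue, read 9075 in distal skin against 975, 1515, 2167, 595 and 367. This was the largest step above all 5 outlets of any gene, but the outlets spread widely and limma did not call it (3.24, SE 0.78, adjusted p 0.0665, with 0.043 and 0.0377 without TSLP local and TGF-beta local mouse 2). Mgl2, a lectin of type 2 macrophages and dermal dendritic cells, read 1658 against 860, 617, 584, 422 and 393 (1.54, SE 0.36, 0.0615, with 0.0302 and 0.0493 without PBS local and TGF-beta local mouse 2). The alarmin Il33 was low, with 591 against 1478, 2582, 2193, 1519 and 1585 (-1.58, SE 0.30, 0.0404), a call lost without IL-13 local, TSLP local or TGF-beta local mouse 1 (0.0541 to 0.0635). Of the 15 genes of the list, 4 passed the filter only through the outlets. Over the 15, 6 lay below all 5 and 3 above, with 2 called lower and 0 higher. Arg1 and Chil3 lay within the outlet range.

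Many matrix genes were below the outlets in distal skin. Of 24 matricellular and wound matrix genes, 20 lay below all 5 outlets and 0 above, 8 were called lower, and the median was -1.16. Tnc, the tenascin of wounds and growing tissue, read 173 against 1961, 2438, 2097, 3216 and 2119 (-3.56, SE 0.25, limma adjusted p 0.00258). Thbs4, a thrombospondin of tendon and muscle, read 320 against 4304, 3890, 2468, 4172 and 2105 (-3.24, SE 0.39, 0.0141). In both genes the step from distal skin to the lowest outlet was larger than the range of the outlets. At the other end of the list, the abundant proteoglycan genes Dcn and Lum and the periostin relative Tgfbi lay within the outlet range, Dcn with 13246 against 11528 to 16322.

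Prg4, the gene of lubricin, which coats joint surfaces and gliding tissue planes, had the smallest adjusted p. Its signal was 74.0 in distal skin against 1776, 1701, 2246, 1700 and 1449, and the outlets spanned only 0.62 on the log2 scale. The difference was -4.14 (SE 0.21, limma adjusted p 0.000596). The tendon and cartilage list as a whole was mixed, with 6 of 9 below all 5 outlets, 2 above and 2 called lower, Prg4 and Thbs4. Of the 9, 2 passed the filter only through the outlets, Prg4 among them. C1qtnf3, a secreted C1q-like protein also known as cartducin, read 111 against 1195, 1756, 1149, 1784 and 905 (-3.27, SE 0.34, 0.0101).

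Collagens differed by chain. Of 20, 15 lay below all 5 outlets and 1 above, 4 were called lower, and the median was -0.81. Of the 20, 3 passed the filter only through the outlets, among them Col8a1 and Col12a1. Col8a1, a short-chain collagen made by activated vessel wall and mesenchymal cells, read 37.6 against 754, 832, 358, 1022 and 623 (-3.44, SE 0.44, limma adjusted p 0.0159). The fibril-associated Col12a1 and Col14a1 were lower by 1.96 (SE 0.25, 0.0159) and 1.72 (SE 0.17, 0.00974). The main fibril chains were not called. Col1a1 read 3381 against 4383 to 6806 (-0.78, SE 0.23, 0.107, and 0.0347 without TSLP local), while Col1a2, with 14399 against 11591 to 19003, and Col3a1, with 14409 against 13549 to 21543, lay within the outlet range. Col17a1, a basal keratinocyte chain, was the 1 collagen above all 5, with 6086 against 3274 to 5035 (0.58, SE 0.21, 0.185).

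Matrix enzymes and their inhibitors were also mostly low, 16 of 22 below all 5 outlets and 3 above, with 4 called lower and a median of -0.94. Of the 22, 7 were under the filter in distal skin. Timp1, an inhibitor of metalloproteinases, read 255 against 1473, 3579, 2767, 3021 and 2210 (-3.16, SE 0.40, limma adjusted p 0.0159). Adam12, a protease of injured mesenchyme, read 150 against 671, 805, 565, 1028 and 916 (-2.18, SE 0.28, 0.0159, and 0.0502 without IL-13 local). Mmp13 and Mmp3, 2 of the inducible metalloproteinases, lay below all 5 but were scattered over the outlets and not called (limma adjusted p 0.308 and 0.173, and 0.0177 for Mmp3 without PBS local). Lox, which crosslinks collagen and elastin, read 878 against 2476, 4630, 3030, 4908 and 2690 (-1.92, SE 0.37, 0.041, but 0.0541 to 0.079 without IL-13 local, TSLP local or TGF-beta local mouse 1), and its other probe set was not called (-2.24, 0.0525). The 3 of 22 that lay above all 5 were Plau, Timp3 and Timp4, none of them called. Timp4 passed the filter only through distal skin.

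Endothelial genes lay below the outlets by mostly small steps. Of 19, 18 lay below all 5 outlets and 3 were called lower, with a median of -0.70. Of the 19, 5 were under the filter in distal skin. Vcam1, an adhesion molecule that inflamed endothelium and fibroblasts display for leukocytes, read 108 against 429, 648, 636.5, 654 and 691 (-2.22, SE 0.24, limma adjusted p 0.0101). Its other probe set differed by less and was not called (-1.11, 0.0745). Cdh5, the cadherin of endothelial junctions, read 197 against 614, 480, 726, 957 and 631 (-1.62, SE 0.30, 0.0358, and 0.0541 without TSLP local). Lyve1 was again the exception.

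**Figure D2:**
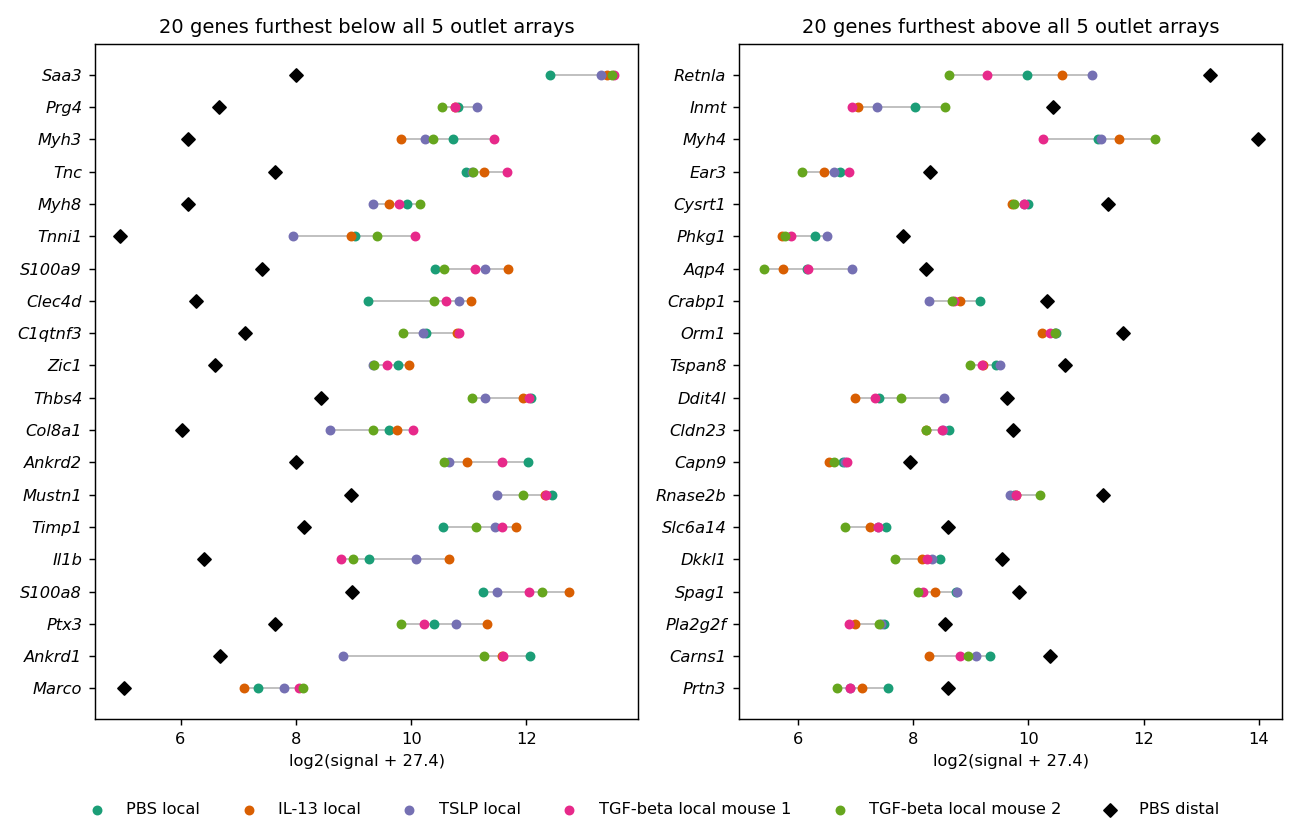
Values of log2(signal + 27.4) (x axis) for the 20 genes furthest below (left) and above (right) all 5 outlet arrays, with PBS distal as a black diamond, each outlet array as a coloured point and a grey bar over the outlet range. The diamonds on the left differ from the nearest outlet by -2.09 (Marco) to -4.39 (Saa3), those on the right by 1.04 (Prtn3) to 2.05 (Retnla).

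Skeletal muscle genes did not all differ in the same direction. Myh3, the embryonic myosin heavy chain, read 42.7 in distal skin against 1676, 879, 1175, 2755 and 1297 (-4.39, SE 0.49, limma adjusted p 0.0117). Myh8, the perinatal heavy chain, read 42.5 against 952, 760, 622, 857 and 1111 (-3.64, SE 0.27, 0.00258). Both were near the bottom of the scale in distal skin and present in every outlet array, PBS local included. The adult fast chain Myh4 (type 2B) ran the other way, with 16138 in distal skin against 2331, 3031, 2416, 1192 and 4650 (2.68, SE 0.56, 0.0482). The oxidative fast chain Myh2 (type 2A) read 3538 against 12250, 7138, 9096, 15287 and 5877, below all 5 but not called (-1.40, SE 0.45, 0.139). Myh1 (type 2X) differed by -0.29 (SE 0.19, 0.468). The call of Myh4 was lost without PBS local, IL-13 local or TSLP local (0.0683 to 0.0958).

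These 5 heavy chain genes are neighbours on chromosome 11, in the order Myh3, Myh2, Myh1, Myh4, Myh8. The windows of 250 bases before the start of the genes that moved furthest are shown to set the promoters of genes with opposite differences side by side. They come from RefSeq (GRCm38.p6), all on the + strand, at chr11:67078050-67078299 (Myh3), chr11:67276874-67277123 (Myh8) and chr11:67237562-67237811 (Myh4). Capitals mark matches to the E-box CANNTG and, on either strand, to the TATA motif TATAAA, which reads TTTATA on the other strand.
Myh3: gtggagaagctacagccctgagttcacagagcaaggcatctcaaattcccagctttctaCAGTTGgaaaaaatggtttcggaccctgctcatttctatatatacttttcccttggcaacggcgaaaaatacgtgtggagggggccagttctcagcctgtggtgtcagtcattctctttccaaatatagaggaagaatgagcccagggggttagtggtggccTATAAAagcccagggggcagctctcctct
Myh8: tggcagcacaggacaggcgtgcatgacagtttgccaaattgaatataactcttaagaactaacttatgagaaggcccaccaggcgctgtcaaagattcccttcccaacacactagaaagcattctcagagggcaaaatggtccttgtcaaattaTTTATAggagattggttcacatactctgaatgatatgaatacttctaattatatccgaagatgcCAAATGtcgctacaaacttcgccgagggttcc
Myh4: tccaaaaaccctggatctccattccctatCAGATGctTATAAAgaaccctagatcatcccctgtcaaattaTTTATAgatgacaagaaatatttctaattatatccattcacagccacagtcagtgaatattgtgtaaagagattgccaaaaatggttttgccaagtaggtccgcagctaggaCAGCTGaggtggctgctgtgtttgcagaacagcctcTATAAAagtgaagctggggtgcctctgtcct
The Myh3 window holds 1 E-box and a TATA motif at positions -29 to -24 from the start. The Myh4 window holds 2 E-boxes and 3 TATA motifs, 1 of them at -31 to -26. In the Myh8 window the E-box lies at -32 to -27 and the TATA motif, on the other strand, at -96 to -91. Myh8 and Myh4, which differed in opposite directions, share a run of 17 bases, tgtcaaattatttatag, at -106 to -90 and -189 to -173. Over the windows of 27025 genes, 69.3% hold a CANNTG and 14.3% a TATAAA on either strand, so the matches are a description of these windows and no more.

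Other genes of developing or denervated muscle, of slow fibres and of strained muscle lay mostly on the same side as Myh3 and Myh8. Of 20 developing and denervated muscle genes 12 passed, 8 of them only through the outlets. Of the 12, 11 lay below all 5 outlets and 2 were called, with a median of -1.06. Of 10 slow fibre genes 7 passed, 3 of them only through the outlets. The listed slow myosin genes Myh7, Myh7b, Myl2 and Myl3 were not among the 7, being off the array or under the filter in every array. Of the 7, 6 lay below all 5 and 4 were called, with a median of -1.90. Tnni1, the slow inhibitory troponin, read 3.35 in distal skin against 492, 471, 220, 1044 and 652 (-4.14, SE 0.61, limma adjusted p 0.0227, and 0.0648 without IL-13 local). Myoz2, a calcineurin-binding protein of slow fibres, read 389 against 3265, 1852, 2720, 3779 and 1225 (-2.53, SE 0.52, 0.0476, but 0.0639 to 0.0914 without any 1 outlet array except TGF-beta local mouse 2).

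Of 17 genes of muscle strain and sarcomere repair, 4 passed the filter only through the outlets. Of the 17, 12 lay below all 5 outlets and 3 were called, with a median of -1.31. Ankrd2, a stretch-responsive ankyrin repeat protein, read 230 against 4160, 1980, 1582, 3007 and 1492 (-3.15, SE 0.50, limma adjusted p 0.0249, and 0.066 and 0.0512 without IL-13 local and TGF-beta local mouse 1). Its relative Ankrd1 read 75.7 against 4227, 3009, 421, 3079 and 2431. TSLP local was far below the other outlets, and the gene was not called (-4.37, SE 1.01, 0.0601, and 0.00135 without TSLP local). Mustn1, a small nuclear protein of regenerating muscle and bone, read 468.5 against 5544, 5070, 2849, 5142 and 3900 (-3.15, SE 0.33, 0.0101). Hspb7, a small heat shock protein of muscle, read 1269 against 8540, 5687, 6103, 8327 and 4846 (-2.34, SE 0.30, 0.0159).

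Mature fast fibre genes were not low in distal skin. Of 22, 10 lay above all 5 outlets and 3 below, 2 were called higher, Myh4 and the calcium buffer Pvalb, and the median was 0.33. Pvalb read 10099 against 4956, 3558, 3949, 3314 and 2808 (1.46, SE 0.26, limma adjusted p 0.0352, but 0.0851 and 0.0702 without IL-13 local and TGF-beta local mouse 1). The summed signal of the 22 genes was 194326 in distal skin and 133634 to 190096 at the outlets. Summed over the 12 developing and denervated muscle genes it was 3094 against 6053 to 12093. The skeletal actin gene Acta1 and the myosin light chain genes Myl1 and Mylpf lay within the outlet range.

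**Figure D3:**
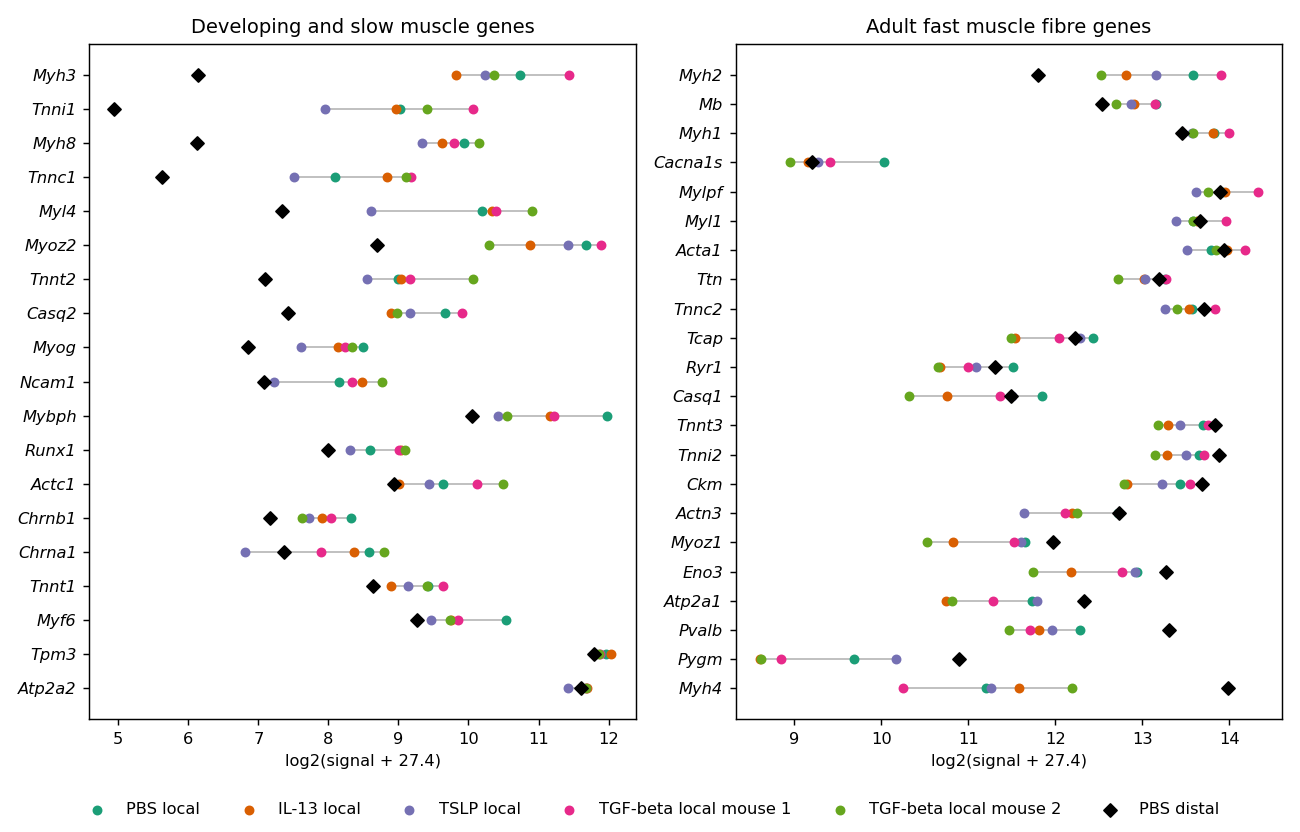
Values of log2(signal + 27.4) (x axis) for the 19 genes of the developing and slow muscle lists (left) and the 22 adult fast fibre genes (right), with PBS distal as a black diamond, outlet arrays as coloured points and a grey bar over the outlet range. Distal skin lies left of the outlets for 17 of the 19, while on the right the diamonds lie on both sides, with Myh4 furthest above.

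Epidermal genes lay slightly above the outlets in distal skin. All 12 basal keratinocyte genes lay above all 5 outlets, against 26.8% of all genes, with a median of 0.58 and 0 called. Trp63, the transcription factor of stratified epithelium, had the largest difference, with 3075 against 1949, 1642, 1637, 1425 and 1892 (0.85, SE 0.18, limma adjusted p 0.0507, with 0.0493 and 0.0382 without PBS local and TGF-beta local mouse 2). Of 20 differentiated keratinocyte and barrier genes, 16 lay above all 5, 4 were called higher and 0 lower, and the median was 0.73. Of the 20, 1 passed the filter only through distal skin. Ivl (involucrin), a scaffold of the cornified envelope, read 417 against 198, 124, 151, 147 and 138 (1.32, SE 0.24, 0.0347). Calml3, a calmodulin-like protein of differentiating epithelium, read 3522 against 1700, 1684, 1462, 1484 and 1892 (1.09, SE 0.17, 0.0242). Flg, which encodes filaggrin, lay above all 5, with TGF-beta local mouse 2 nearest, and was not called, with 2006 against 669, 779, 728, 883 and 1598 (1.16, SE 0.40, 0.155, and 0.0135 without TGF-beta local mouse 2). The calls of Ivl and Calml3 were lost without IL-13 local (0.0732 and 0.066) and TGF-beta local mouse 1 (0.0709 and 0.0512), and that of Ivl also without TSLP local (0.0523).

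Single genes of epithelial surfaces were among the furthest above the outlets. Cysrt1, a cysteine-rich protein of stratified epithelium, read 2631 against 991, 815.5, 940, 943 and 831 (1.52, SE 0.15, limma adjusted p 0.00974). Cldn23, a claudin of tight junctions, read 820 against 368, 272, 338, 334 and 271 (1.31, SE 0.19, 0.0223, and 0.0535 without IL-13 local). Orm1, the acute phase protein orosomucoid, was higher in distal skin, unlike Saa3, with 3170 against 1401, 1182, 1388, 1297 and 1375 (1.24, SE 0.14, 0.0122). Inmt, a methyltransferase of small amines, read 1343 against 234, 104, 139, 95.7 and 349 (2.83, SE 0.55, 0.0429), a call lost without IL-13 local, TSLP local or TGF-beta local mouse 1 (0.0629 to 0.0863). Crabp1, a retinoic acid binding protein of the dermal papilla and fibroblasts, read 1261 against 546, 421, 283, 393 and 383 (1.60, SE 0.27, 0.0291), lost without IL-13 local or TGF-beta local mouse 1 (0.0732 and 0.061). Ear3 and Rnase2b, of the eosinophil-associated ribonuclease family, were both higher, by 1.74 (SE 0.36, 0.0485) and 1.46 (SE 0.20, 0.0181), but these genes are near-identical copies and their probe sets may read each other. Ear3 read 287 in distal skin and 40.0 to 91.5 at the outlets. It passed the filter only through distal skin, which fixes its direction. The call of Ear3 was lost without any 1 outlet array except TGF-beta local mouse 2 (0.0597 to 0.106), and that of Rnase2b without IL-13 local (0.0558).

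Fat and gland genes lay above by less. Of 10 sebaceous gland genes 9 lay above all 5 outlets (median 0.39), of 18 adipocyte genes 8 lay above and 1 below (0.42), and of 18 lipogenesis genes 10 lay above and 2 below (0.47), with 0 called in each. Adipoq, the fat hormone adiponectin, read 7359 against 3954, 3127, 5420, 4314 and 3474 (0.88, SE 0.26, limma adjusted p 0.117). The fat fatty acid binding protein Fabp4 lay within the outlet range. Of 22 oxidative phosphorylation genes 12 lay above all 5 (median 0.19) and 0 were called.

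Body-site transcription factors as a group lay outside the outlets about as often as all genes did. Of 42 patterning genes on the array only 16 passed the filter on dim probe sets, 4 of them only through the outlets. Of these 16, 6 lay below all 5 outlets and 2 above, beside 24.9% and 26.8% of all genes. Limma called 1 lower, beside 2.44% of all genes, and the median was -0.03, beside 0.02 for all genes. The called gene was Zic1, a zinc finger factor of the dorsal neural tube and of dorsal mesoderm, with 70.0 in distal skin against 850, 968, 623, 738 and 631 (-3.0, SE 0.24, limma adjusted p 0.00376). The outlets agreed closely with one another, and the call held whichever outlet array was left out (0.00399 to 0.0185). Meox1, a homeobox factor of somites, read 67.1 against 268, 155, 232, 215 and 140 (-1.25, SE 0.32, 0.0795, and 0.0392 without TGF-beta local mouse 2).

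Of the Hox genes that passed, none was called. Hoxa9 read 356 against 635, 561.5, 513, 668 and 563 (-0.68, SE 0.16, limma adjusted p 0.0669), and Hoxd8 read 409 against 749, 606, 629, 645 and 725 (-0.67, SE 0.15, 0.0582). Hoxc8 lay on the other side, with 955 against 645.5, 734.5, 650, 614 and 784 (0.47, SE 0.16, 0.154). Hoxc4 lay just above the outlets, with 233 against 158 to 219 (0.32, SE 0.21, 0.466). Distal skin did not overlap the outlets for these 4 genes, which also held for 24.9% (below) and 26.8% (above) of all genes. Hoxa5, Hoxa7, Hoxb2, Hoxc9 and Hoxd9, and Tbx15, a T-box factor of dorsal skin, lay within the outlet range.

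**Figure D4:**
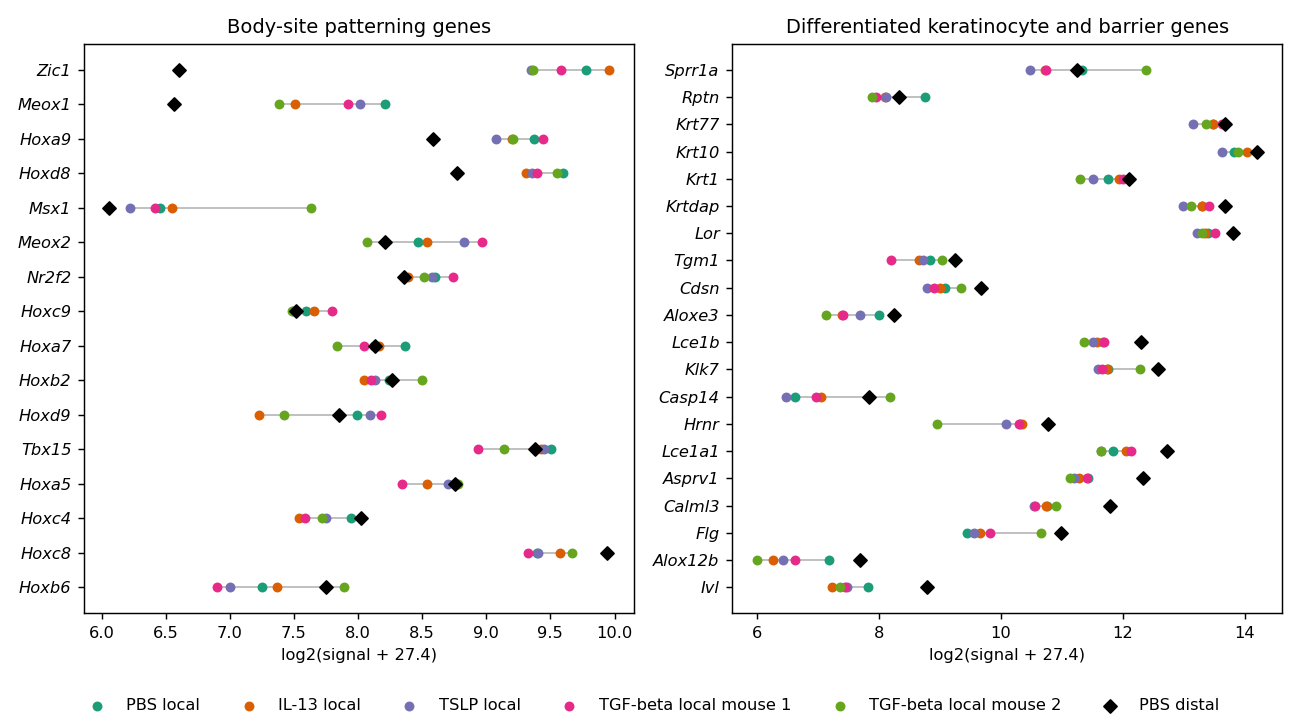
Values of log2(signal + 27.4) (x axis) for the 16 body-site patterning genes (left) and the 20 differentiated keratinocyte and barrier genes (right) that passed the filter, with PBS distal as a black diamond, outlet arrays as coloured points and a grey bar over the outlet range. Zic1 differs from its nearest outlet by -2.74, the other patterning genes overlap the outlets or lie nearer to them, and most barrier diamonds lie just to the right of the outlet range.

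Hair follicle genes gave no common direction, and TGF-beta local mouse 2 was far above every other array. Of 33 on the array 28 passed the filter, 22 of them only through the outlets. The 28 genes summed to 4790 in distal skin and to 2221, 5640, 2308, 1927 and 60073 at the outlets, and 0 of them lay below and 1 above all 5. Krt25, a keratin of the inner root sheath, read 441 in distal skin against 12.3, 1049, 30.8, 29.8 and 13132. The list's median was -0.22 against the mean of all outlets and 0.47 without TGF-beta local mouse 2. Groups that differed little between distal skin and the outlets were antigen presentation (15 genes, median -0.04, 1 below and 0 above all 5), ribosomal proteins (13 genes, 0.10, 0 and 1) and clock output genes (13 genes, 0.05, 2 and 2).

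**Figure D5:**
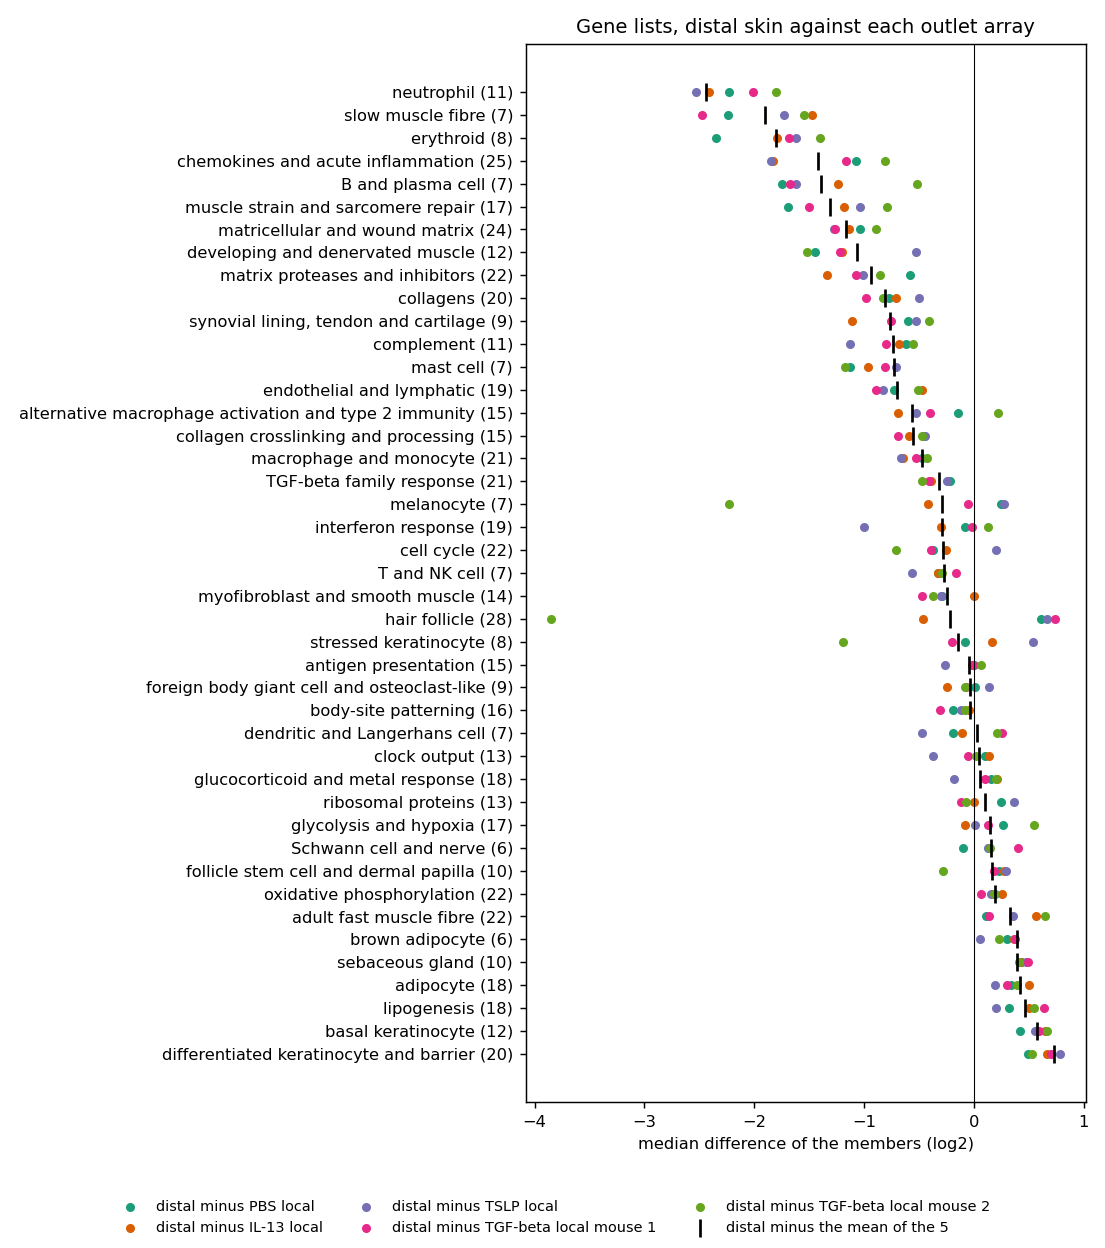
Median difference of each plotted gene list with at least 6 measured members, which leaves out the exocrine pancreas, elastic fibre and imprinted lists (y axis, number of members in brackets) in log2 units (x axis), for PBS distal minus each outlet array (coloured points) and minus the mean of the 5 (black bar). The neutrophil (-2.44), slow muscle (-1.90) and erythroid (-1.80) lists lie furthest below 0 among those plotted and the differentiated keratinocyte list (0.73) among the furthest above, and the hair follicle points spread from -3.85 (TGF-beta mouse 2) to 0.74 (TGF-beta mouse 1).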

How the data were processed

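RNA from 6 skin samples was hybridised to 6 Affymetrix arrays. The authors deposited 1 signal intensity per probe set, and per the submitters' processing notes the tool was MAS5. Its version, its settings and a genome build were not given in the sources used here. After leaving out 2% at each end the means of the arrays were 500.16 to 500.2, so the arrays had been scaled to a common level, and no further normalization was applied.

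Of 22690 probe sets, 64 controls were left out. The platform annotation gave 1 gene for 20380, several for 691 and none for 1555, and 20351 were matched to RefSeq symbols (GRCm38.p6), giving 12393 genes. Probe sets reaching 165.1 signal units in at least 1 array were kept (12430, holding 7945 genes), and log2(signal + 27.4) was used, so differences of dim genes are understated. PBS distal was compared with the mean of the 5 outlets by limma 3.58.1 in R 4.3.3 with an intensity trend (residual degrees of freedom 4, prior 3.96) and Benjamini-Hochberg adjustment over all probe sets. The spread comes from the outlets and so holds differences between agents, and the lone distal array is assumed to vary like them. Apart from the TGF-beta mice, nothing says that the samples are separate animals, so p-values measure only the spread between these samples. Tables were made with Python 3.11.15.

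On simulated data with resampled outlet residuals, the test recovered 36% of 2-fold, 90% of 4-fold and 98% of 16-fold changes, with 55 false calls among 12230 unchanged probe sets. Named genes are the 20 furthest below and 20 furthest above the outlets, up to 4 per list by size of difference, and patterning genes outside all 5. Other genes named, among them those within the outlet range, were chosen after their values were seen. Members and lists were chosen with earlier results of these data known. Alternatives changed the offset, floor, normalization, filter, probe set summary, trend, outlets compared and the array left out.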

Additional observations from a re-analysis of the deposited data

Results flagged for a closer look

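For 40 genes furthest from the outlets, the 5 outlet arrays were searched for 1 array that lay far from the others, measured as its gap to the nearest array divided by the range of the 5. Chance marks about 1 in 20 groups in this way, so a few among 40 carry little weight. Saa3 in PBS local had a gap of 0.799 of the range, below the 4 cytokine arrays. Ankrd1 in TSLP local had a gap of 0.756, also on the low side. Rnase2b in TGF-beta local mouse 2 had a gap of 0.805, on the high side, toward the distal value. Distal skin lay outside all 5 arrays for each of these genes. The cause of these outlying values was not tested.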

How the results depend on the processing

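Only 1 distal array exists, so its own spread is unmeasured, and the limma p-values assume that it varies like the outlets. The limma counts, 265 lower and 116 higher, became 98 and 193 with a floor at the median, 103 and 37 without the filter on dim probe sets, 51 and 4 with the spread of the TGF-beta pair, and 1 and 0 against PBS local alone. Leaving out 1 outlet array gave 54 to 393 lower and 9 to 226 higher. Probe sets outside all outlets numbered 4744 below and 5477 above without the filter, and 1816 and 2124 with gene means (fewer features). Against PBS local alone each probe set falls below or above by definition (6321 and 6109), so that count tells nothing of robustness. Probe sets 2-fold outside numbered 99 and 16 with 4 times the offset, 88 and 19 with every array above the filter, 106 and 22 with gene means, and 425 and 110 against PBS local alone. With 1 outlet array left out they ranged from 193 to 233 below and 36 to 57 above. The hair follicle median, -0.22, turned to 0.55 with every array above the filter, 0.61 against PBS local alone and, with 1 outlet array left out, ranged from -0.53 (without TSLP local) to 0.47 (without TGF-beta local mouse 2), and the melanocyte median, -0.29, to 0.25 against PBS local alone. The cause of these shifts was not tested. Quantile normalization, gene means for the limma counts and a fit without an intensity trend kept the counts within 1.5 times. No paired analysis was possible because only 1 distal array exists and the labels do not say whether it shares an animal with PBS local. Dim signals, with 73 of 135 low genes under the filter in distal skin, limit the size of those differences.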

Other observations

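Elastic fibre genes formed another group that was low in distal skin. The list was drawn up after its values were known, so it is a description only. Of 12 microfibril and elastic fibre genes measured, 11 lay below all 5 outlet arrays and 1 above, against 24.9% and 26.8% of all genes, and limma called 6 lower. Their median difference was -1.40 on the log2 scale, beside 0.02 for all genes. Their summed signal was 6284 in distal skin and 14957 to 20747 at the outlets. They included the elastin gene Eln, with a limma adjusted p of 0.0257, and the microfibril-associated genes Mfap4 and Mfap5, with 0.0249 and 0.0245. These 3 calls were lost without IL-13 local (0.066 each), and those of Eln and Mfap4 also without TGF-beta local mouse 1 (0.0512 and 0.0538).

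Imprinted growth genes, many of which are expressed at lower levels after birth than before it, were also mostly lower in distal skin than at the outlets. Some were still bright there, such as Dcn, which lay within the outlet range. This list was likewise drawn up after its values were known. Of 11 measured, 3 of them under the filter on dim probe sets in distal skin, 8 lay below all 5 outlets and 0 above, 2 were called lower, and the median was -0.71. The growth factor gene Igf2 differed by -2.21 (limma adjusted p 0.0587, and 0.047 without IL-13 local), the non-coding RNA Meg3 by -1.42 (0.0242) and the zinc finger gene Plagl1 by -1.43 (0.0475). The calls of Meg3 and Plagl1 were lost without IL-13 local (0.066 and 0.103), and that of Plagl1 also without TGF-beta local mouse 1 (0.0711).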
